A study of Mus musculus with 6 samples.

Results

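Long noncoding RNAs with an established name were followed in whole mouse lung, 10 in all of the 40842 reference genes in each deposited table. They were chosen by symbol and by what they are known for, and their levels were taken from the rows that carry a gene name. Malat1, Neat1, Meg3 and Kcnq1ot1 are RNAs that stay in the nucleus. Gas5, Snhg1 and Snhg12 are hosts of small nucleolar RNAs (snoRNAs), Pvt1 is linked to p53, and H19 and Dnm3os are hosts of microRNAs. Lung polyA RNA of wild-type female C57BL/6N mice was sequenced from untreated mice in 3 libraries, called control 1 to 3 here, and from mice exposed once to 9 MeV electrons, at a dose of 20 Gy, in another 3, called irradiated 1 to 3. Both groups carry a time label of 100 days, and neither the age of the mice nor which body part the beam reached is in the labels. The comparison asks how the level of each RNA differs between irradiated and untreated lung. Whether each library is a different mouse is not in the labels, and the spread behind every p-value may therefore be technical.

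Nuclear-retained RNAs act where they are made: Malat1 sits in nuclear speckles, which hold splicing factors, Neat1 builds paraspeckles, and Kcnq1ot1 silences the imprinted genes around it. SnoRNA host genes carry snoRNAs in their introns, and their spliced RNAs often begin with a run of pyrimidines, as messenger RNAs of ribosomal proteins do (TOP RNAs), and are destroyed by nonsense-mediated decay when translated. The p53 protein, activated by DNA damage, switches on an isoform of Pvt1, whose gene lies beside Myc, and microRNA hosts are cut to release the short RNAs they hold.

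The ends of Malat1 and of the long form of Neat1 are shown because neither is finished by ordinary polyadenylation. In both, RNase P cuts before a tRNA-like RNA, and U-rich runs pair with an A-rich run to form a triple helix that protects the end. The sequences are from GENCODE vM21 transcripts of the GRCm38 build, written as DNA, 5′ to 3′, and each lies on the minus strand. Capitals mark U-rich runs (at least 3 T, then C or GC, then at least 4 T) and A-rich runs (at least 5 A, then GC, then at least 4 A), or, in the short form of Neat1, the polyadenylation signal AATAAA. The first lies at chr19:5795982-5796081, the second directly follows it at chr19:5795924-5795981, the third at chr19:5824708-5824807 and the fourth at chr19:5842307-5842366.
Malat1, the 100 bases before mascRNA: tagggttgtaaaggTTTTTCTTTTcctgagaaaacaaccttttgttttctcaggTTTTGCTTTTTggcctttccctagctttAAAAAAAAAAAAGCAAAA
mascRNA, the 58 bases released from Malat1: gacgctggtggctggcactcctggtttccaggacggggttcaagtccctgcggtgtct
Neat1 long form, last 100 bases: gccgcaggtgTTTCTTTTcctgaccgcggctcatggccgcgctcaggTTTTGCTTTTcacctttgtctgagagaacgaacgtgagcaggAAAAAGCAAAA
Neat1 short form, last 60 bases: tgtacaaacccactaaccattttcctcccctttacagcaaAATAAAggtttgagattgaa
Read on the RNA's own strand, at least 2 U-rich runs together with an A-rich run were found in the last 400 bases of 6 of 122312 annotated transcripts of at least that length, these Malat1 and Neat1 transcripts among them. At least 2 U-rich runs were found in 0.404% of the transcripts and an A-rich run in 0.117%.

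The libraries held 5.11 to 10.4 Gb of aligned sequence as implied by the deposited values, with irradiated 2 the deepest, and 13467 to 14050 genes per library reached 1 FPKM, the deposited measure of level per length of transcript and per fragment mapped. Limma was run on log2(FPKM + 1) for all genes whose 6 libraries averaged 1 FPKM or more, and an adjusted p (Benjamini-Hochberg, over all 13908 genes tested) under 0.05 was called. Called genes numbered 25, or 0.18% of those tested. All 7 lung markers passed the minimum, with Sftpc, the surfactant protein of alveolar type 2 cells, at 8741 FPKM or more in every library. Their summed FPKM was 49716 to 62372 in control and 28732 to 38368 in irradiated libraries. Of the 7, 6 had a lower and 1 a higher mean log level in irradiated lung, and none was called. Markers of other cells also differed between libraries. The summed FPKM of 6 neutrophil markers was 75.9 to 503 in control and 218 to 4696 in irradiated libraries. For 6 red cell markers it was 1347 to 1708 and 1442 to 6253, and for 6 mesothelial markers 205 to 370 and 107 to 188. For 6 cardiac muscle markers it was 63.9 to 451 and 19.1 to 210, and for 5 adipose markers 21.3 to 433 and 13.4 to 198. Control 2 was the highest library for Myh6 of cardiac muscle (71.8 FPKM) and for Adipoq of adipose tissue (31.2 FPKM). The part of these differences in the results for the members was not tested, and in bulk tissue fewer cells of a type and less RNA per cell cannot be told apart.

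None of the 6 members that reached the minimum was called. They were Malat1, Neat1, Meg3, Gas5, Snhg1 and Snhg12, and the other 4 (Kcnq1ot1, Pvt1, H19 and Dnm3os) were compared with an exact two-sided permutation test, whose smallest possible p with 3 against 3 libraries is 0.1. Libraries of the 2 groups did not overlap in FPKM for 3 of the 10: Neat1 and Kcnq1ot1 were lower in every irradiated library than in any control, and Pvt1 was higher. Over the 31967 genes above 0 FPKM, 8.76% were lower and 8.26% were higher in this sense, and over the tested genes 14.6% and 9.91%. With 10 members nothing is read from this count.

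**Figure D1:**
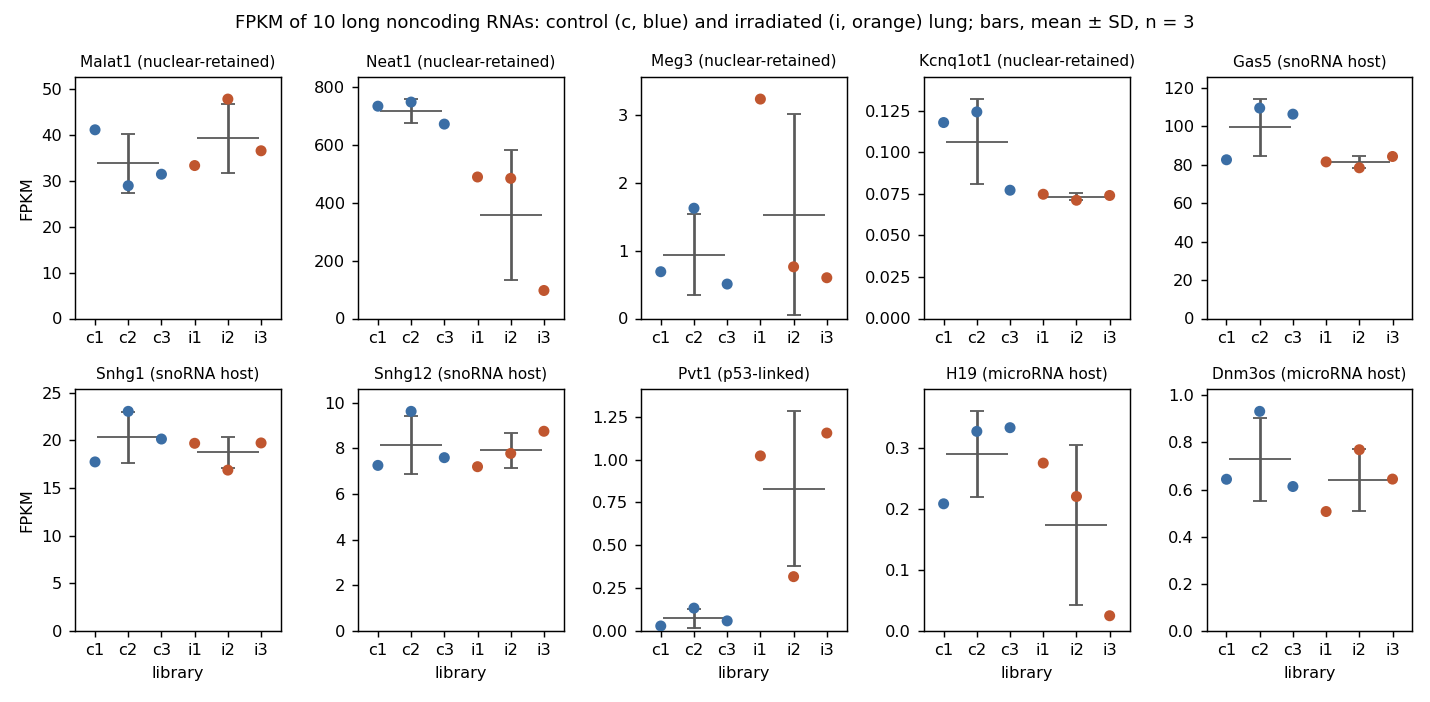
FPKM (y axis, linear, a separate scale for each RNA) of the 10 long noncoding RNAs in control (c1 to c3, blue) and irradiated (i1 to i3, orange) libraries, with the mean ± SD of each group of 3 in grey. The groups are apart for Neat1, Kcnq1ot1 and Pvt1, and the Neat1 point of irradiated 3, at 96.7 FPKM, lies far below the other 5.

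Neat1, the scaffold of paraspeckles, had the highest level of the members and ranked 30 by mean FPKM among the reference genes. Its gene lies at chr19:5874736-5895508 on the minus strand (GRCm39, as are all gene positions that follow). Its level was 733, 747 and 671 FPKM in control 1 to 3 and 488, 483 and 96.7 FPKM in irradiated 1 to 3. All 3 irradiated libraries were below all controls, and irradiated 3 was much lower than the other 2. The mean was 717 ± 40.4 FPKM (SD, n = 3) in control and 356 ± 225 in irradiated lung, a log2 change of -1.33 ± 0.62 (standard error) that limma did not call (adjusted p = 0.326).

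The deposited coverage of Neat1 gave another size. In each table, 42.5% to 44.5% of the reference genes with coverage above 0.5 share a ratio of FPKM to coverage, within 0.1%, which is also the lowest of the library. Coverage multiplied by that library constant is called the coverage level here. It is in FPKM units and is a second deposited measure, whose dependence on how reads were divided among transcripts was not tested. For Neat1 the FPKM was 6.50, 6.51 and 6.51 times the coverage level in control 1 to 3, 6.47 and 6.45 times in irradiated 1 and 2, and 1.03 times in irradiated 3.

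The coverage level of Neat1 was 113, 115 and 103 in the 3 controls and 75.4, 75.0 and 93.7 in irradiated 1, 2 and 3. The irradiated libraries were again all below the controls, and irradiated 3 was now the highest of its group. By mean coverage level Neat1 ranked 299 among the reference genes, where by mean FPKM it ranked 30. The means were 110 ± 6.23 and 81.3 ± 10.7 (SD, n = 3), a log2 change of -0.44 ± 0.12 with an unadjusted p of 0.00802 and an adjusted p of 0.145 by limma. Of the 12934 genes tested on this scale 18 were called, or 0.139%, and the groups did not overlap in 15.1%, with irradiated lower, and in 9.87%, with irradiated higher. Without irradiated 3 the change in FPKM was -0.56 (adjusted p = 0.0847), so this library alone moved the FPKM change by more than 1.5 times.

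An unnamed entry assembled from the reads covered the same coordinates as Neat1 in all 6 tables. Its FPKM equalled that of the reference gene in 5 libraries. In irradiated 3 it was 609 where the reference gene had 96.7, while both entries had a coverage level of 93.7. By the assembled entry the means were 717 ± 40.4 FPKM in control and 527 ± 71.1 in irradiated lung, 0.735 times as high, beside 0.738 times by the coverage level. Both entries had the same coverage level in every library, so the likeness of these ratios is no separate result. GENCODE vM21 holds a Neat1 transcript of 20771 bases and one of 3004 bases that ends 3172 bases from the start of the longer one, at the AATAAA end printed above; how reads were divided between such forms in each table was not tested.

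Among the 13886 tested genes with coverage in every library, 185 (1.33%) had a ratio of FPKM to coverage level that varied by more than 2 times across libraries. Neat1 (6.31 times) and Meg3 (2.55 times) were among them. Malat1, Gas5, Snhg1 and Snhg12 varied by 1.01 times at most, so their FPKM and coverage levels give the same comparison.

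**Figure D2:**
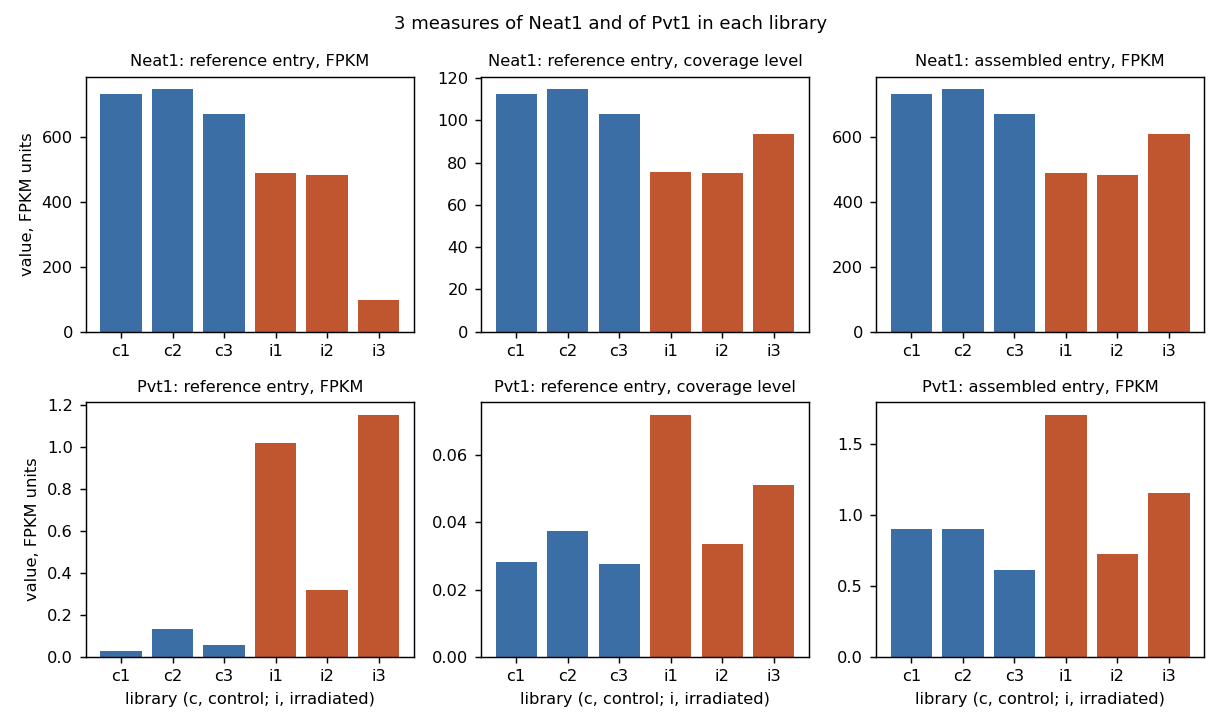
Neat1 (top) and Pvt1 (bottom) in each library (c, control, blue; i, irradiated, orange) as the FPKM of the reference gene, its coverage level, and the FPKM of the unnamed assembled entry over the same place; y axes are linear, start at 0 and are in FPKM units. The Neat1 bar of irradiated 3 is low on the first measure only, and the Pvt1 difference of the first measure is smaller on the other 2.

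Malat1, which lies about the nuclear speckles and is one of the most abundant nuclear RNAs in most tissues, is at chr19:5845718-5852700 on the minus strand. Its level was 41.0, 28.9 and 31.4 FPKM in control 1 to 3 and 33.3, 47.7 and 36.5 FPKM in irradiated 1 to 3. The groups overlapped, and irradiated 2 was the highest. The log2 change was 0.21 ± 0.18 (limma, adjusted p = 0.584). Per length, Neat1 exceeded Malat1 in every library: on the coverage level by 2.75, 3.98 and 3.29 times in control 1 to 3 and by 2.27, 1.57 and 2.57 times in irradiated 1 to 3, with the irradiated ratios all below the controls. The ratio shares the Neat1 values and is no separate result. The libraries were made from polyA RNA, and neither Malat1 nor the long form of Neat1 is finished by ordinary polyadenylation. How fully each RNA was captured was not tested, so the ratio is one of library levels and not of amounts in the tissue.

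The mascRNA printed above has an entry of its own (Mascrna, chr19:5845952-5846009) inside the Malat1 entry on the same strand. It was looked at after its values were seen. Its level was 27.3, 26.4 and 27.1 FPKM in control 1 to 3 and 11.8, 17.2 and 16.0 FPKM in irradiated 1 to 3. The 3 controls lay within 1 FPKM of each other and every irradiated library was well below them, with means of 26.9 ± 0.474 and 15.0 ± 2.81 (SD, n = 3). The log2 change was -0.82 ± 0.14, and the entry was not called (limma, adjusted p = 0.0737); over the alternatives the adjusted p ranged from 0.0451, without irradiated 1, to 0.282.

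Beside Malat1 itself the difference in Mascrna was larger. Mascrna over Malat1 was 0.665, 0.914 and 0.863 in the 3 controls and 0.355, 0.360 and 0.438 in the 3 irradiated libraries, without overlap. A read over this stretch lies in both entries, and how such reads were divided is not given in the sources used here. The libraries were made from polyA RNA, and the released mascRNA is known to carry no polyA tail; whether the entry measures it or uncut Malat1 was not tested.

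**Figure D3:**
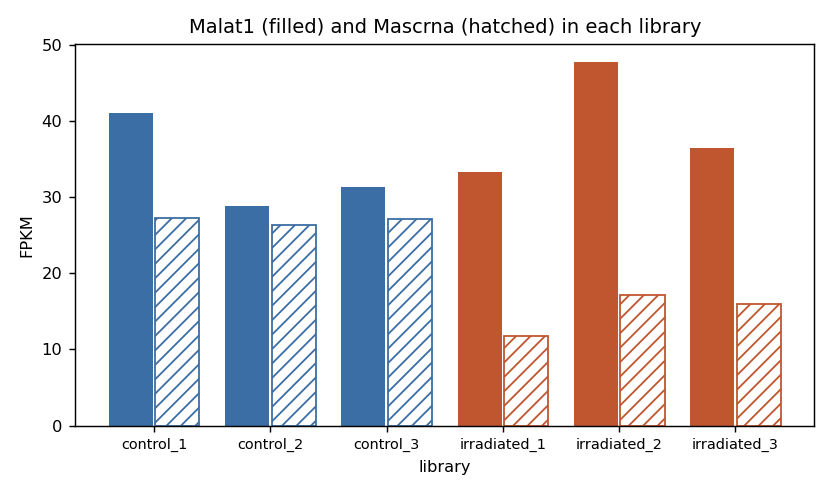
FPKM (y axis, linear from 0) of Malat1 (filled) and of the Mascrna entry inside it (hatched) in control (blue) and irradiated (orange) libraries. The Malat1 bars of the groups overlap, from 28.9 to 47.7 FPKM, and the Mascrna bars do not, with 26.4 FPKM or more in control and 17.2 or less in irradiated libraries.

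Meg3, a maternally expressed imprinted RNA of the Dlk1 cluster, lies at chr12:109506879-109538163 on the plus strand. Its level was 0.691, 1.63 and 0.509 FPKM in control 1 to 3 and 3.24, 0.763 and 0.602 FPKM in irradiated 1 to 3. Irradiated 1 stood above all other libraries, and the other 2 irradiated libraries lay among the controls. The log2 change was 0.28 ± 0.41 (limma, adjusted p = 0.765), and it turned to -0.17 without irradiated 1. On the coverage level Meg3 was at 0.691, 0.848 and 0.509 in control and 1.27, 0.748 and 0.602 in irradiated 1 to 3, a mean under the minimum of 1. Irradiated 1 remained the highest, by a smaller margin.

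Of 8 fibroblast markers, irradiated 1 was the highest library for the 3 collagen genes Col1a1, Col1a2 and Col3a1 and not for the other 5. Col3a1 was at 134 FPKM in irradiated 1; control 1 to 3 had 72.2, 97.8 and 81.6 FPKM, irradiated 2 had 30.8 and irradiated 3 had 19.8. For Tcf21, a transcription factor of lung fibroblasts, irradiated 1 was the lowest library (44.5 FPKM, against 51.3 to 81.7 in the others), and for Dcn, a matrix proteoglycan, it was at 91.2 FPKM, below the 110 of control 2. The summed FPKM of 8 fibroblast markers was 323 to 421 in control and 229 to 474 in irradiated libraries, and the part of these cells in the Meg3 values was not tested. Mir1906-1, an entry inside Meg3, was likewise highest in irradiated 1 (5.94 FPKM, against 1.47 to 3.66 in the other 5). Of the partners of Meg3 in the cluster, Rian, a snoRNA host RNA, was at 1.68 ± 0.331 FPKM in control and 1.45 ± 0.855 in irradiated lung (n = 3 each), and Mirg, a microRNA host, at 0.124 to 0.196 and 0.132 to 0.253 FPKM. Dlk1, the paternally expressed partner, was listed at 0 in control 1 and 3 and at 0.0284 FPKM in control 2, against 0.229, 0.118 and 0.111 FPKM in irradiated 1 to 3; these levels are all low, and the groups did not overlap. Rtl1, which overlaps Meg3 on the other strand, did not exceed 0.0502 FPKM.

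Kcnq1ot1, the antisense RNA that silences the Kcnq1 cluster on the paternal chromosome, lies at chr7:142766848-142850284 on the minus strand, within Kcnq1. Its level was 0.118, 0.124 and 0.0772 FPKM in control 1 to 3 and 0.0748, 0.0712 and 0.0741 FPKM in irradiated 1 to 3. The irradiated values lay just below the lowest control, at a coverage of less than 1 read per base in every library. The exact permutation p was 0.1, the smallest the design allows. Kcnq1, the potassium channel gene on the other strand, was at 7.30 ± 0.102 and 7.16 ± 1.09 FPKM (n = 3 each). Cdkn1c, a CDK inhibitor that the RNA silences, was at 15.0 ± 1.61 and 15.9 ± 4.39. Neither was called (limma, adjusted p = 0.914 and 0.925). On the coverage level the mean of Kcnq1 was under the minimum of 1, so its FPKM comparison has no second measure here. Phlda2, another gene of the cluster, was at 1.07, 1.41 and 0.899 FPKM in control and 0.530, 0.773 and 0.696 FPKM in irradiated libraries, without overlap and with a mean under the minimum. Strand use in the counting is not given in the sources used here, so reads of Kcnq1ot1 and of Kcnq1 introns cannot be told apart.

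As a class, the 4 nuclear-retained RNAs split, with a higher mean log value for Malat1 and Meg3 and a lower one for Neat1 and Kcnq1ot1. Their median log2 change was 0.08 in FPKM and 0.05 on the coverage level, beside a median of -0.03 over all genes tested in FPKM and of 0.00 over all genes without a minimum. The class median came to -0.11 without irradiated 1, and the class has no common direction in these libraries.

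The 3 snoRNA hosts had lower mean FPKM in irradiated lung, and none was called; with the tables scaled to a common sum the log2 change turned positive for Snhg1 and Snhg12. The starts of their spliced RNAs are shown for the pyrimidine run of TOP RNAs, from GENCODE vM21 (GRCm38), plus strand, with the run from the first base in capitals.
Gas5, first 30 bases: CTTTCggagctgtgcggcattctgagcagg
Snhg12, first 30 bases: CTTTCTCgcttcatccgcggtccctgtctg
Snhg1, first 30 bases: gttcttgtcggcctcatttttccttgttcg
The annotated transcript of Gas5 began with 5 pyrimidines and that of Snhg12 with 7, and CTTTC opens 235 of all 141767 annotated transcripts (0.166%). The Snhg1 transcript shown starts with G. The starts are those of the annotation and were not measured here, and other annotated transcripts of the 3 genes were not compared.

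Gas5, whose RNA builds up when growth stops and can bind the glucocorticoid receptor, lies at chr1:160862171-160866109 on the plus strand. Its level was 82.7, 110 and 106 FPKM in control 1 to 3 and 81.6, 78.5 and 84.4 FPKM in irradiated 1 to 3. Control 1 lay among the irradiated libraries, and control 2 and 3 lay above them all. The means were 99.6 ± 14.7 and 81.5 ± 2.94 FPKM, a log2 change of -0.28 ± 0.13 (limma, unadjusted p = 0.0663, adjusted p = 0.314). The change kept its direction under every alternative tried, from -0.40 to -0.15. Zbtb37 overlaps the first bases of Gas5 on the other strand and was at 1.26 to 2.81 FPKM in the 6 libraries.

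Inside Gas5 the tables hold 8 entries of snoRNA size on the same strand, among them Snord47, with means of 3.25 to 22.9 FPKM. By group means 4 were higher and 4 lower in irradiated lung, and none was called (lowest adjusted p = 0.182, limma). The summed FPKM of the 8 was 58.3, 71.3 and 77.0 in the 3 controls and 68.5, 63.8 and 59.9 in the 3 irradiated libraries, with overlap. The most abundant, LOC115487677, was at 23.1, 26.6 and 28.9 FPKM in control and 21.0, 16.9 and 20.8 FPKM in irradiated libraries. LOC115487643 went the other way, from 3.26, 4.07 and 4.10 FPKM to 4.89, 5.77 and 4.27 FPKM. In neither did the groups overlap. The libraries were made from polyA RNA. Whether the entries inside Gas5, Snhg1 and Snhg12 measure released snoRNAs or unspliced host RNA was not tested.

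Snhg1, the host of the snoRNA U22 (Snord22) and others, lies at chr19:8700851-8703690 on the plus strand. Its level was 17.7, 23.0 and 20.1 FPKM in control 1 to 3 and 19.7, 16.9 and 19.7 FPKM in irradiated 1 to 3. The groups overlapped, and the log2 change was -0.10 ± 0.12 (limma, adjusted p = 0.689), and 0.02 when the tables were scaled to a common sum. Of 8 entries inside it 7 had a lower mean in irradiated lung. Snord22 was at 6.86, 6.13 and 6.61 FPKM in control and 4.88, 5.67 and 5.30 FPKM in irradiated libraries, with no overlap and a log2 change of -0.26 ± 0.10 (limma, adjusted p = 0.238).

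Snhg12, the smallest of the 3 hosts, lies at chr4:132035989-132038335 on the plus strand. Its level was 7.25, 9.62 and 7.59 FPKM in control 1 to 3 and 7.20, 7.78 and 8.75 FPKM in irradiated 1 to 3. The groups overlapped. The log2 change was -0.03 ± 0.13 (limma, adjusted p = 0.918), and its sign turned when the tables were scaled to a common sum (0.08). Of the 4 snoRNA entries inside it, Snora61 was at 2.99 to 3.77 FPKM in control and 1.86 to 2.97 FPKM in irradiated libraries, and the groups did not overlap, by a narrow margin. Snora44, Snora16a and Snord99 overlapped.

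The median log2 change of the 3 hosts was -0.10 in FPKM and on the coverage level alike, and 0.02 with a common sum, so the class has no direction of its own. Gas5 stood at 4.66, 4.76 and 5.28 times the FPKM of Snhg1 in control 1 to 3 and at 4.14, 4.65 and 4.28 times in irradiated 1 to 3. Those ratios did not overlap in FPKM, by the margin between 4.65 and 4.66, and overlapped on the coverage level.

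Other snoRNA host RNAs were set beside them. Of 18 listed, 15 were tested and none was called; 11 had a lower and 4 a higher mean log level in irradiated lung, with a median log2 change of -0.22 beside -0.03 over all tested genes. The groups did not overlap, with irradiated lower, in 5 of the 15, where 14.6% of all tested genes did so. Snhg20, the most abundant, was at 17.6, 22.9 and 25.7 FPKM in control 1 to 3 and 12.3, 11.7 and 16.0 FPKM in irradiated 1 to 3, a log2 change of -0.68 ± 0.17 (limma, adjusted p = 0.128). Zfas1, Snhg8 and Snhg3, the next by level, overlapped between the groups, with log2 changes of 0.00, -0.25 and 0.07.

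Of 24 TOP messenger RNAs tested, 8 had a higher and 16 a lower mean log level, none was called, and the median was -0.14. Their starts were not compared with those of the hosts. The elongation factor genes Eef1a1 and Eef2 had log2 changes of -0.07 and 0.07, and Tpt1 one of -0.15. The 15 ribosomal protein genes of the list stood at low FPKM in these tables, Rpl3 at a mean of 4.85 FPKM where Eef1a1 had 1769. They are 15 of the 24 genes behind the median and the counts, and why they stood so low was not tested. Of the 10 factors of nonsense-mediated decay, 7 were higher and 3 lower, with a median of 0.04, none called, and Upf1, its helicase, at 16.6 ± 1.95 FPKM in control and 16.8 ± 0.884 in irradiated lung (n = 3 each).

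Pvt1, the RNA gene beside Myc, spans chr15:61909835-62132064 on the plus strand. Its level was 0.0280, 0.132 and 0.0578 FPKM in control 1 to 3 and 1.02, 0.316 and 1.15 FPKM in irradiated 1 to 3. Every irradiated library was above every control, by the group means 11.4 times (0.0727 ± 0.0537 against 0.831 ± 0.451 FPKM, SD, n = 3). The mean over the 6 libraries was under 1 FPKM, and the exact permutation p was 0.1, the smallest the design allows. In the fit without a minimum the log2 change was 0.74 ± 0.20 and was not called (limma, adjusted p = 0.320).

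Pvt1 was the member whose size depended most on the measure. Its coverage was 0.176, 0.254 and 0.162 reads per base in the 3 controls and 0.419, 0.348 and 0.261 in the 3 irradiated libraries, under 1 read per base throughout. FPKM was 1.00, 3.53 and 2.10 times the coverage level in control and 14.2, 9.41 and 22.6 times in irradiated libraries. On the coverage level Pvt1 was at 0.0280, 0.0375 and 0.0275 in control and at 0.0720, 0.0336 and 0.0512 in irradiated 1 to 3. Irradiated 2 now lay below control 2, so the groups overlapped, and the ratio of the means was 1.69 in place of 11.4 (exact permutation p = 0.2).

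The unnamed assembled entry over 95.3% to 95.8% of Pvt1 was at 0.897, 0.901 and 0.611 FPKM in control and 1.71, 0.724 and 1.15 FPKM in irradiated libraries. Here too the groups overlapped, and the means differed by 1.49 times. Irradiated 1 and 3 were the highest libraries in the FPKM and coverage level of the reference gene and in the FPKM of the assembled entry. The coverage level of the assembled entry went the other way, with 0.894, 0.762 and 0.581 in the 3 controls and 0.0684, 0.681 and 0.0502 in irradiated 1, 2 and 3, so that irradiated 1 and 3 were the lowest there. No single size or direction therefore holds for Pvt1 over these 4 measures. The larger difference in the FPKM of the reference gene goes with how that value relates to coverage in each library, whose cause was not tested.

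Myc itself, the neighbour of Pvt1 that encodes a growth transcription factor, was at 2.39, 2.83 and 2.51 FPKM in control 1 to 3 and 3.08, 2.97 and 3.86 FPKM in irradiated 1 to 3. The groups did not overlap, and the log2 change of 0.26 ± 0.13 was not called (limma, adjusted p = 0.343). Of 13 tested genes on the list of Myc and its targets, 3 were higher and 10 lower, with a median of -0.07. Cdk4 was at 46.0 ± 6.66 FPKM in control and 34.6 ± 5.54 in irradiated lung, and Odc1 and Ldha overlapped. On the list of p53 targets 20 of 22 were higher, with a median of 0.67, where 44.2% of all tested genes were higher. Of the 22, 2 were called, where 0.18% of all tested genes were. Trp53inp1 was at 19.4 ± 1.62 FPKM in control and 48.3 ± 7.66 in irradiated lung (n = 3, log2 change 1.26, adjusted p = 0.0298, limma), and Psrc1 at 1.05 ± 0.296 and 5.48 ± 0.472. The most abundant of the list, Btg2, Cdkn1a, Bax and Ccng1, were not called. Every irradiated library was above every control for Cdkn1a, Bax and Ccng1 (log2 changes of 2.45, 0.57 and 0.91), and the groups overlapped for Btg2 (-0.07).

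Members that host microRNAs were both under the minimum. Their mature microRNAs are shown because the host RNA is measured here and the microRNAs are not. The sequences are from RefSeq (GRCm38.p6), as RNA, with the seed (bases 2 to 8) in capitals.
Dnm3os, miR-199a-5p: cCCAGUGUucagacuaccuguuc
Dnm3os, miR-199a-3p: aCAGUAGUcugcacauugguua
Dnm3os, miR-214-3p: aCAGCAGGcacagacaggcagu
H19, miR-675-5p: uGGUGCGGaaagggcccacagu
H19, miR-675-3p: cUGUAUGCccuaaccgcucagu
All 5 seeds differ.

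Dnm3os, an RNA of fibroblast lineages read antisense to Dnm3, lies at chr1:162045192-162053119 on the plus strand. Its level was 0.643, 0.932 and 0.613 FPKM in control 1 to 3 and 0.506, 0.769 and 0.644 FPKM in irradiated 1 to 3. The groups overlapped (exact permutation p = 0.7). The entry of the hairpin Mir214 inside it was at 1.33, 1.94 and 1.47 FPKM in control and 0.759, 1.31 and 0.440 FPKM in irradiated libraries, without overlap and not called (limma, adjusted p = 0.266). Mir199a-2 did not exceed 0.239 FPKM. Dnm3 on the other strand was at 1.28 ± 0.322 and 1.66 ± 0.760 FPKM (n = 3 each), with a mean coverage level under the minimum of 1.

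H19, a maternally expressed imprinted RNA that is abundant before birth, lies at chr7:142129267-142131883 on the minus strand. Its level was 0.209, 0.328 and 0.334 FPKM in control 1 to 3 and 0.276, 0.221 and 0.0247 FPKM in irradiated 1 to 3. Irradiated 3 was far below the rest, and the other 2 irradiated libraries lay among the controls (exact permutation p = 0.3). Its partner Igf2, a growth factor expressed from the paternal chromosome, was at 2.37 ± 0.487 and 2.58 ± 0.277 FPKM (n = 3 each), with a log2 change of 0.10 (limma, adjusted p = 0.779).

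**Figure D4:**
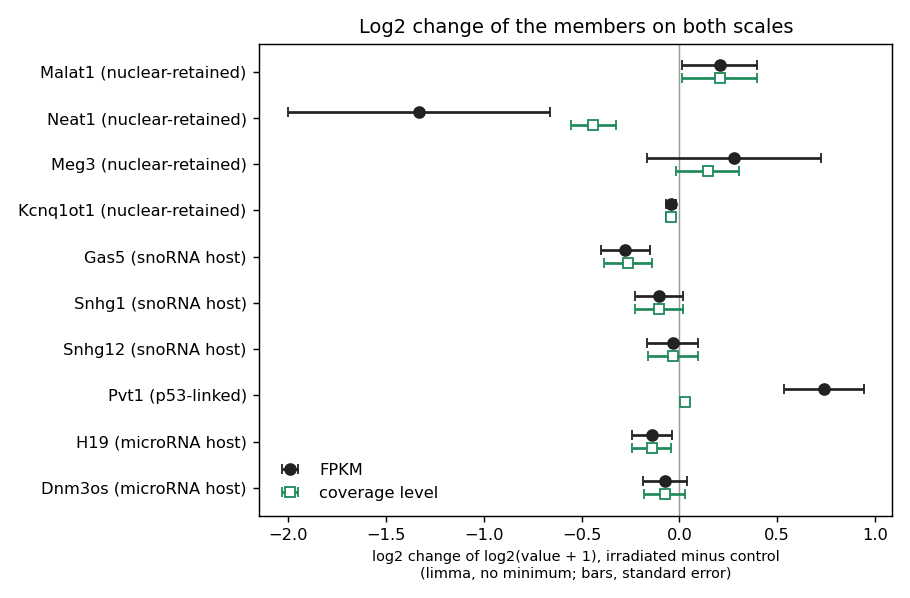
Log2 change (x axis, irradiated minus control, of log2(value + 1)) of the 10 members in limma fits without a minimum, from FPKM (filled) and from the coverage level (open); bars are standard errors. The scales differ for Neat1 (-1.33 and -0.44) and Pvt1 (0.74 and 0.03) and lie close together for the other 8, with Meg3 at 0.28 and 0.14.

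Set side by side, 7 of the 10 members had a lower and 3 a higher mean log level in irradiated lung on either scale. In FPKM, 52.8% of all genes without a minimum were higher, and 44.2% of the tested genes, or 64.1% with a common sum. With 10 members nothing is read from this count. Among the snoRNA hosts Gas5 was lower also with a common sum, while Snhg1 and Snhg12 turned to 0.02 and 0.08 there. The nuclear-retained RNAs split evenly, and the size for Pvt1 rests on the measure. The order of the mean FPKM was Neat1, Gas5, Malat1, Snhg1, Snhg12, Meg3, Dnm3os, Pvt1, H19 and Kcnq1ot1. By the coverage level Gas5 (38.3) and Malat1 (36.4) were close, with libraries that overlapped, and Pvt1 came last. How fully polyA selection captured each RNA was not tested, so both orders are those of the libraries.

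Proteins that work with the nuclear RNAs were compared from lists of their own. Of 17 paraspeckle proteins tested, 15 had a lower and 2 a higher mean log level in irradiated lung, with a median log2 change of -0.23, and none was called. Nono, a core paraspeckle protein, was at 68.2, 69.1 and 65.1 FPKM in control 1 to 3 and 62.7, 51.6 and 58.3 FPKM in irradiated 1 to 3, without overlap (log2 change -0.23 ± 0.10, limma, adjusted p = 0.289). Ewsr1, an RNA-binding protein, had a log2 change of -0.26, and Hnrnpk, which acts on the choice between the Neat1 forms, one of -0.16. Groups did not overlap, with irradiated lower, in 6 of the 17, where 14.6% of all tested genes did so.

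Of 18 nuclear speckle and splicing proteins tested, 15 were lower and 3 higher in FPKM (13 and 5 on the coverage level), with a median of -0.16 and none called. The splicing factor gene Luc7l3 was at 38.8, 46.2 and 47.2 FPKM in control 1 to 3 and 30.4, 27.6 and 30.6 FPKM in irradiated 1 to 3 (log2 change -0.56 ± 0.10, limma, adjusted p = 0.0793). Srsf5 and Srsf2, of the SR family of splicing factors, and Clk1, a kinase of that family, overlapped between the groups. Srrm2, a scaffold of speckles, had a log2 change of 0.23. Scaling to a common sum moved the median over all tested genes from -0.03 to 0.08, by 0.11, and a list median within that distance of 0 has no direction of its own.

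**Figure D5:**
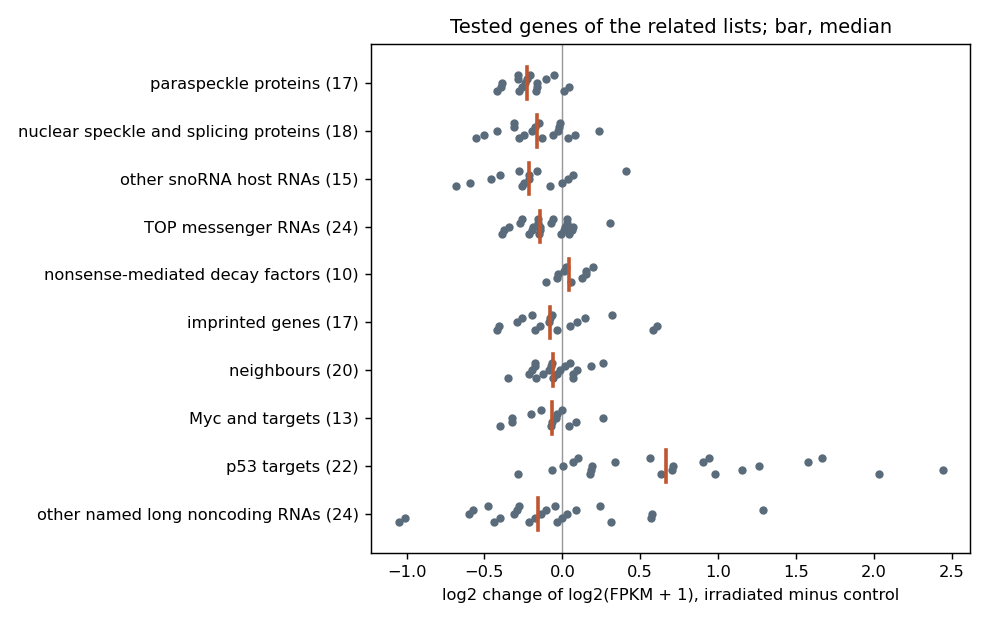
Log2 change (x axis, irradiated minus control) of the tested genes of 10 lists related to the members, each point a gene and each bar the list's median; the number tested is in brackets. The p53 targets lie to the right, with a median of 0.67, and the medians of the other lists lie between -0.23 and 0.04.

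Among 17 tested imprinted genes 6 were higher and 11 lower, with a median of -0.08 and none called. Peg3, a paternally expressed zinc finger gene, was at 1.72, 1.31 and 1.20 FPKM in control 1 to 3 and 2.38, 2.55 and 3.12 FPKM in irradiated 1 to 3. The groups did not overlap (log2 change 0.61 ± 0.15, limma, adjusted p = 0.118). Genes that neighbour the members had a median of -0.06 over 20 tested, 7 higher and 13 lower, none called. Frmd8, near Neat1 on chromosome 19, was at 16.3 ± 1.00 FPKM in control and 17.1 ± 1.12 in irradiated lung (n = 3 each).

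Other named long noncoding RNAs were examined by the same rule. Of 47 found, 24 were tested and none was called, 7 being higher and 17 lower, with a median of -0.16. Xist, which coats the inactive X chromosome, was at 28.6 ± 5.04 FPKM in control and 27.6 ± 3.66 in irradiated lung. Oip5os1 had a log2 change of 0.09. Fendrr, an RNA of lung mesenchyme, was at 80.7, 54.8 and 68.7 FPKM in control 1 to 3 and 36.2, 51.7 and 48.3 FPKM in irradiated 1 to 3, without overlap (log2 change -0.57 ± 0.18, limma, adjusted p = 0.198). Mir22hg, the host of a microRNA, was at 18.1, 17.6 and 18.3 FPKM in control and 23.9, 27.9 and 30.1 FPKM in irradiated libraries, also without overlap (log2 change 0.57 ± 0.10, adjusted p = 0.0793).

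The genes whose profile over the 6 libraries was nearest to each tested member were found by the largest gap in log2(FPKM + 1), each gene set to its control mean, among 8917 or 8918 named genes of at least 5 FPKM. Mif, a cytokine, and Ndufa8, a subunit of respiratory complex I, followed Gas5 to within 0.06 and 0.07. For Malat1 they were Midn and Rapgef3 (0.10 and 0.12), for Snhg1 Ss18l2 and Smyd2 (both 0.05), and for Snhg12 Fbxo6 and Chchd4 (both 0.06). Fndc1 and Adamts2, which act in the extracellular matrix, were nearest to Meg3 (0.27 and 0.33) and share its high value in irradiated 1. For Neat1 the nearest by FPKM, Gzma and Chst4, differed by up to 0.66 and 1.05, more than for any other tested member.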

How the data were processed

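Lung RNA of 3 control and 3 irradiated libraries was analysed from 1 deposited table per library. The submitters' processing notes name GRCm39 as the build and list STAR 2.7.6a, fastp and DESeq2 without saying which did what. How the tables were quantified, with which annotation and whether by strand, is not given in the sources used here. As for content, per the file headers the tables give coverage and FPKM per gene. The FPKM deposited by the authors is scaled for length and mapped fragments. The coverage signal deposited by the authors is per base, and its ratio to FPKM gave the implied depth. No counts are held, so no counting interval can be given.

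Rows with a gene name were summed per gene. The design named limma on log2(FPKM + 1), with a mean-variance trend and robust variances (limma 3.58.1, R 4.3.3), the group as the only term, a mean of at least 1 FPKM and Benjamini-Hochberg adjustment. Folds on this scale understate changes of genes near or below 1 FPKM. The procedure was tested on simulated data with independent normal values, which hold no difference that many genes of a library share. The outcome is not given here, and no result rests on it. Alternatives were other minima, pseudocounts, scalings and variance estimates, the replicate number as a block, left-out libraries and, added after seeing the data, the coverage level. The members and lists were chosen with earlier results of these data known. Named genes are all members, up to 4 of each list by mean FPKM with every called gene, and the 2 nearest genes. The listed neighbours and imprinted partners are named where they bear on a member. Mascrna, Mir214, the other entries inside members, Luc7l3, Peg3, Phlda2 and Rpl3 were named after their values were seen. Some genes covered by this rule are left out of the text, and most cell type markers are given only as sums. Lists carry no test. Chromosome numbers come from gene symbols in a RefSeq table of another build, and GRCm38 sequences were matched by name only. Python 3.11.15 with pandas 2.3.3, numpy 2.4.6 and matplotlib 3.10.9 was used.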

Additional observations from a re-analysis of the deposited data

How the results depend on the processing

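No member was called under any alternative, where a test could be run. The count of called genes, 25 with all libraries, was 38 with a minimum of 5 FPKM, 0 with no minimum (3531 genes at an unadjusted p under 0.05, limma), 13 with a common sum, 11 with median-ratio scaling, 9 without control 2 and irradiated 2, and 0 on the coverage level with no minimum. It ranged from 0 to 116 when 1 library was left out: 0 without control 1 or control 3, 1 without control 2, 100 without irradiated 1, 3 without irradiated 2 and 116 without irradiated 3. With the replicate number as a block it was 0 (1623 at an unadjusted p under 0.05); same-numbered libraries did not deviate together (r = -0.17, -0.54 and -0.28 across genes), 0 of 3 controls correlated best with the irradiated library of their number, and the numbers were not taken as a pairing. Scaling to a common sum turned the split of called genes from 9 higher and 16 lower to 7 and 6.

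Neat1 and Gas5 kept a lower level under all 18 alternatives, Neat1 between -1.72 and -0.44. Without control 2 and irradiated 2 the log2 change was -0.042 for Malat1, 0.71 for Meg3, 0.057 for Snhg1 and for the median of the snoRNA hosts, 0.086 for Snhg12 and -0.036 for the median of the nuclear-retained RNAs. With a common sum it was 0.020 for Snhg1, 0.082 for Snhg12 and 0.15 for the nuclear-retained median. When 1 library was left out, Malat1 ranged from 0.059 to 0.35, Meg3 from -0.17 (without irradiated 1) to 0.54, Snhg1 and the snoRNA host median from -0.19 to -0.013, Snhg12 from -0.10 to 0.077 (0.077 without control 2, 0.024 without irradiated 1) and the nuclear-retained median from -0.11 to 0.10. A pseudocount of 0.1 gave 2.32 for Pvt1, -0.24 for Kcnq1ot1, -0.64 for H19, -0.40 for the microRNA hosts and -0.016 for the nuclear-retained RNAs. On the coverage level Pvt1 was at 0.029, with or without a minimum, and with a pseudocount of 0.1 at 0.21, with Kcnq1ot1 at -0.25, H19 at -0.64, the microRNA hosts at -0.40 and the nuclear-retained RNAs at -0.017. Fewer libraries were used in the fits that left some out; for the other alternatives the cause was not tested. Depth is known only as implied sequence, so the members under 1 FPKM carry a counting error that cannot be given.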
